A study of Mus musculus with 24 samples.

Results

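RNA recovered with GFP-Mkrn3 from mouse GT1-7 cells was compared, gene by gene, with the RNA of the lysates it was recovered from. All 6 libraries labelled GFP-Mkrn3 in the RNA immunoprecipitation (RIP) experiment entered the comparison, 3 of the immunoprecipitate (GFP-Mkrn3 IP) and 3 of the input (GFP-Mkrn3 input), out of 24 libraries in the series, and every gene row was eligible. GT1-7 is an immortalised mouse hypothalamic neuron line that makes gonadotropin-releasing hormone (GnRH). Cells received 6 µg of a plasmid for 24 h, GFP-tagged protein was drawn from the lysate on GFP-trap beads, and 5% of the lysate was kept as input. The 6 GFP-Mkrn3 libraries came from cells given the GFP-Mkrn3 plasmid, and 6 libraries from cells given the GFP plasmid (3 GFP IP, 3 GFP input) were handled in the same way. Both plasmids act in the same line, so every library carries a GFP construct, and the GFP-Mkrn3 cells hold the plasmid transcript on top of any Mkrn3 RNA of their own. Nothing in the labels tells whether the 3 libraries of a group are 3 cultures or repeats of 1, and p-values therefore describe library-to-library spread that may be technical. The other 12 libraries of the series, from a fractionation experiment, were not used here.

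Mkrn3 encodes makorin ring finger protein 3, which joins CCCH zinc fingers, a motif known from RNA-binding proteins, to a RING domain of the kind found in ubiquitin ligases. It is an imprinted gene expressed from the paternal copy, and people who lose it enter puberty early, the stage that begins when hypothalamic neurons raise GnRH release. In a RIP experiment an RNA is called enriched when it makes up more of the IP library than of the input library. RNA that sticks to beads, tag or tube also reaches an IP, which is why a pull-down of GFP alone is run beside it. Values are relative within a library, so a transcript can be lower in an IP because others are higher.

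The GFP-Mkrn3 IP libraries held 10324136, 14575652 and 8616616 counts and the GFP-Mkrn3 input libraries 7893751, 7590468 and 8730028, with 17246 to 20599 genes detected in these 6. Pearson's r of log2 CPM (a count divided by the effective size of its library) between libraries was 0.989, 0.988 and 0.975 within the IP, the lowest being IP 2 against IP 3, and 0.986 to 0.987 within the input. Of the markers of the line, Gnrh1 and the hypothalamic transcription factors Otx2 and Six6 were present in all 6 libraries (Otx2 at 145 to 169 CPM, Six6 at 35.6 to 53.2 CPM). The general neuronal markers Tubb3 and Syp were low, Snap25 held 0 counts in all 6, and Stmn2 and Elavl3 held 0 to 3 counts per library. Of the 14 astrocyte and oligodendrocyte markers 7 were at 0 in all 6 libraries (Aqp4, Slc1a2, Slc1a3, Mog, Olig1, Olig2 and Sox10), and the sum of the 14 was 157 to 161 CPM in the IP and 133 to 141 CPM in the input. Of the 14 fibroblast, endothelial and immune markers 5 were at 0 (Col3a1, Lum, Ptprc, Aif1 and Cd3e). Their sum was 495 to 504 CPM in the IP and 383 to 421 CPM in the input, so both marker sums were higher in the IP. The members of the first list did not rise together. Of its 5 tested genes 1 (Pdgfra) was called higher by the test given below, and the median log2 fold change was −0.25. In the second list 2 of 5 were higher, with a median of 0.27, where 13.9% of all tested genes were higher. The most abundant in the input were the endothelial receptor Kdr (201 CPM) and the fibroblast collagen Col1a2 (156 CPM) in the second list and the oligodendrocyte precursor receptor Pdgfra (117 CPM) in the first. Their part in the results below was not tested.

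Of 13052 genes tested, 3487 (26.7%) differed between the GFP-Mkrn3 IP and its input at an adjusted p under 0.05 in edgeR's quasi-likelihood test with Benjamini-Hochberg adjustment, the call used throughout. Higher in the IP were 1812 genes (13.9%) and lower 1675 (12.8%). The differences were mostly small. Past 1 log2 unit, a doubling or a halving, lay 554 of the higher and 148 of the lower genes, and the median over all tested genes was 0.03 log2 units. Non-coding nuclear RNAs and unassigned transcribed loci led the higher side. Mitochondrially encoded RNAs, 7SK and Y RNAs and histone H4 mRNAs led the lower side. The number called ranged from 2385 without GFP-Mkrn3 input 2 to 4576 without GFP-Mkrn3 IP 3, and the higher genes numbered 1195 without GFP-Mkrn3 input 2. With library size alone as the scaling the split became 2599 higher to 1263 lower (67.3% higher, against 52% with TMM scaling).

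Mkrn3 itself encodes the protein that was pulled down. The gene lies on chromosome 7, 62417593 to 62420153 (GRCm38.p6), and has the identifier ENSMUSG00000070527. No other tested gene was found within 5 kb of it in RefSeq. The values below are of its RNA. Its level was 9832, 9067 and 9726 CPM in the GFP-Mkrn3 IP libraries, against 3602, 3728 and 3733 CPM in the GFP-Mkrn3 input libraries. The groups did not overlap, and the log2 fold change was 1.37 (SE 0.11, adjusted p = 8.94e-08, n = 3 per group). The GFP libraries held 4.0 to 8.6 CPM of Mkrn3, and the count in the GFP-Mkrn3 libraries includes the plasmid transcript. Mkrn3 took 1.01% ± 0.04 of all IP counts and 0.368% ± 0.007 of all input counts (SD, n = 3). The GFP pull-down left the low Mkrn3 level of its cells within the spread (0.18, adjusted p = 0.49), and the difference between the log2 fold changes of GFP-Mkrn3 and GFP was 1.20 (adjusted p = 0.00116).

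The other makorins in the list of 3 did not pass the test. Mkrn1, a ubiquitin ligase reported to bind RNA and poly(A)-binding protein, was at 43.8, 37.6 and 53.6 CPM in the IP, against 44.4, 51.0 and 54.8 CPM in the input (−0.16, adjusted p = 0.366). Mkrn2 was at 47.7, 51.9 and 53.9 CPM in the IP, against 61.0, 62.6 and 63.8 CPM in the input. The Mkrn2 groups do not overlap, yet the call was missed (−0.29, adjusted p = 0.0851).

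**Figure D1:**
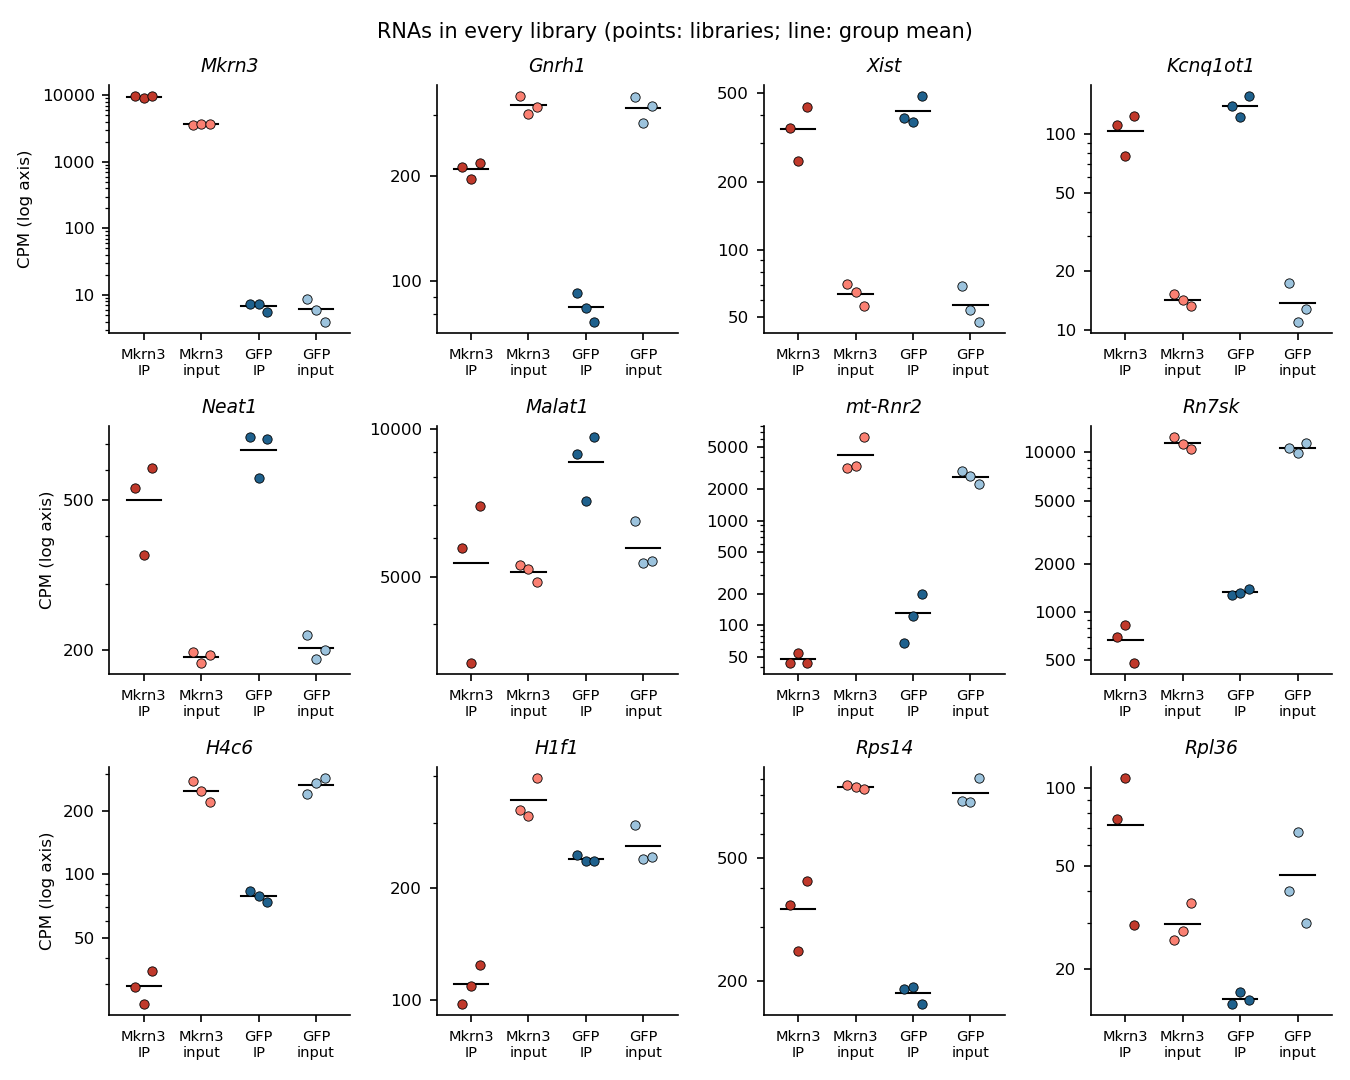
CPM on a log axis (TMM scale) of 12 RNAs in each library, one panel per RNA, with GFP-Mkrn3 IP, GFP-Mkrn3 input, GFP IP and GFP input from left to right; points are libraries (n = 3 per group) and bars are group means. Xist, Kcnq1ot1 and Neat1 stand higher in both IPs, mt-Rnr2, Rn7sk and H4c6 lower in both, H1f1 lower in the GFP-Mkrn3 IP and near its input in the GFP IP, and Mkrn3 is high in the 6 GFP-Mkrn3 libraries alone.

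The Gnrh1 mRNA, whose precursor protein is named in the title of the series, was lower in the GFP-Mkrn3 IP than in its input. Gnrh1 (chromosome 14, 67745181 to 67749440, GRCm38.p6) stood at 212, 196 and 219 CPM in the GFP-Mkrn3 IP, against 340, 302 and 315 CPM in the GFP-Mkrn3 input. Every IP library was below every input library. The log2 fold change was −0.61 (SE 0.09, adjusted p = 0.000108). In the GFP IP the same mRNA was at 92.1, 83.1 and 76.2 CPM, against 338, 284 and 317 CPM in the GFP input (−1.90, adjusted p = 4.21e-11). The depletion was thus smaller with GFP-Mkrn3, by 1.29 log2 units (adjusted p = 5.14e-06). Gnrh1 mRNA was not enriched over input by either pull-down.

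Of 6 genes reported as partners or targets of Mkrn3, 1 was higher in the IP, 2 were lower and 3 did not pass the test, where 26.7% of all tested genes were called. The methyl-CpG-binding protein gene Mbd3 was at 46.6, 52.4 and 55.6 CPM in the IP, against 69.2, 74.4 and 71.3 CPM in the input (−0.48, adjusted p = 0.00422). Tet2, an enzyme of DNA demethylation, was higher by 0.36 (adjusted p = 0.0287), a call that was lost without input 1 (0.39, adjusted p = 0.0524), input 2 (0.26, adjusted p = 0.164), IP 1 (0.38, adjusted p = 0.057) or IP 3 (0.29, adjusted p = 0.0673). Pabpc1, the main cytoplasmic poly(A)-binding protein, was at 683, 698 and 662 CPM in the IP, against 644, 615 and 603 CPM in the input. These groups do not overlap, but the log2 fold change of 0.13 did not pass (adjusted p = 0.203). Pabpc4 (−0.02, adjusted p = 0.878) lay within the spread, and the neuronal pentraxin Nptx1 was near the limit of counting at 0.51 to 1.7 CPM.

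None of the 9 tested prohormone processing and secretory granule genes was called, against 26.7% of all genes. Their log2 fold changes ran from −0.32 for Scg5, a chaperone of the convertase Pcsk2, to 0.36 for Pcsk1n, an inhibitor of the convertase Pcsk1, with a median of −0.06. Pcsk2 itself had 35.7, 35.9 and 37.3 CPM in the IP, against 41.1, 35.2 and 35.5 CPM in the input. The carboxypeptidase Cpe stood at 269, 278 and 280 CPM in the IP and at 271, 291 and 277 CPM in the input. Pam, which amidates peptide hormones, was at 685, 601 and 724 CPM in the IP, against 709, 701 and 715 CPM in the input. In these 3 the groups overlapped. Pcsk1n was called higher without GFP-Mkrn3 IP 3 (0.61, adjusted p = 0.0122).

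Among 15 tested genes of GnRH neuron identity and of the Gnrh1 promoter, 2 were higher and 2 lower, 4 of 15 where 26.7% of all genes were called, so the list did not stand out. Cebpb, a bZIP repressor of the Gnrh1 gene, was at 64.8, 86.5 and 34.5 CPM in the IP, against 23.1, 29.1 and 31.1 CPM in the input (1.17, adjusted p = 0.0113). The IP libraries spread widely and IP 3 lay just above the input. Without GFP-Mkrn3 input 1 the Cebpb call was missed (1.05, adjusted p = 0.0571). The receptor gene Fgfr1, needed for GnRH neuron development, was higher by 0.45 (adjusted p = 0.00474). The transcription factor Nfib was lower (−0.40, adjusted p = 0.0123), as was Gnrh1 itself. Otx2 was at 153, 145 and 169 CPM in the IP, against 167, 164 and 165 CPM in the input, and did not pass (−0.09, adjusted p = 0.482).

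Long non-coding RNAs that stay in the nucleus were the clearest named group on the higher side. Of 10 tested in the list of 14, 6 were higher in the GFP-Mkrn3 IP and 0 lower, with a median log2 fold change of 1.31, against 0.03 over all tested genes. Kcnq1ot1, the antisense RNA that silences an imprinted domain (chromosome 7, 143213111 to 143296547), was at 111, 77.0 and 123 CPM in the IP, against 15.2, 14.1 and 13.2 CPM in the input (2.86, SE 0.17, adjusted p = 1.32e-09). Xist, the RNA that coats the inactive X chromosome (chromosome X, 103460373 to 103483233), was at 351, 250 and 432 CPM in the IP, against 70.4, 65.0 and 56.4 CPM in the input (2.43, adjusted p = 1.02e-08). In both, every IP library stood several-fold above every input library, with IP 2 the lowest of the 3. Neat1, the scaffold of paraspeckles, was at 537, 358 and 607 CPM in the IP, against 197, 185 and 194 CPM in the input (1.38, adjusted p = 2.3e-06). Ftx, an Xist activator (1.66), Mir99ahg, a microRNA host (1.24), and Firre, a chromatin-bound RNA (0.75), were also called. The speckle RNA Malat1 was not, at 5717, 3341 and 6980 CPM in the IP, against 5292, 5198 and 4871 CPM in the input (0.06, adjusted p = 0.821). Malat1 in IP 2 was below all 3 inputs while IP 1 and IP 3 were above them, and without IP 2 it was called higher (0.31, adjusted p = 0.0367). The list also covers Airn and Pvt1, both under 4 CPM and not called, and the ribosomal RNA-related Rn18s-rs5, which varied from 365 to 928 CPM in the IP and from 384 to 701 CPM in the input.

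The same RNAs were enriched by GFP alone. Log2 fold changes in the GFP IP were 3.36 for Kcnq1ot1, 2.87 for Xist and 1.73 for Neat1. None of the 10 was called in the difference between the pull-downs, where 24.3% of all tested genes were called. Without GFP-Mkrn3 IP 3, 4 of the 10 were called lower with GFP-Mkrn3 than with GFP, among them Xist (−0.64, adjusted p = 0.0124). In that setting 2064 of 13331 tested genes were lower in the difference.

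Loci of the annotation type TEC, transcribed regions awaiting experimental follow-up, made up the top of the higher side. All 12 of the genes with the largest positive log2 fold changes and a mean of at least 20 counts were TEC loci, at 3.70 to 6.97. Of 1659 TEC loci with counts, 487 passed the filter on low counts, and 321 of these were higher in the GFP-Mkrn3 IP and 2 lower. A locus near 0 in the inputs can pass that filter through an IP alone and then has to differ, so the share of these loci called supports nothing about the class. At least 10 counts in each GFP input library were held by 68 TEC loci. This choice was made after the values were seen and uses no GFP-Mkrn3 library. Of the 68, 21 were higher and 1 lower in the GFP-Mkrn3 IP, with a median of 0.39. Over all tested genes 13.9% were higher and 12.8% lower. Gm38381 stood at 21.1, 12.7 and 23.7 CPM in the IP, against 0.889, 0.923 and 0.23 CPM in the input (4.81, SE 0.36, adjusted p = 3.21e-08). Gm37524 stood at 21.8, 8.9 and 28.3 CPM in the IP, against 1.4, 1.71 and 0.805 CPM in the input (3.90, adjusted p = 2.3e-06). C130089K02Rik had 236 counts over the IP libraries and 1 over the input libraries, a depth-corrected ratio of 170.5 with an interval of 30.3 to 6763 (exact, 95%, counting error only). Phxr4 had 204 counts in the IP and 3 in the input, a ratio of 49.1 (16.6 to 240.2). These loci were thus close to absent from the inputs and still low in the IPs. Together all TEC loci, filtered or not, took 0.196%, 0.138% and 0.221% of the counts in the IP libraries, against 0.0659%, 0.0632% and 0.0579% in the input libraries.

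A position was found in RefSeq for 11 of the 487 TEC loci, and 10 of these overlap a protein-coding gene. Phxr4, for example, lies within Maml2, which was at 63.6 CPM in the input. No source used here gives the strand setting of the counting, and reads of unspliced host RNA and of the TEC locus cannot be told apart. In the GFP IP 370 TEC loci were higher, and 26 of the 68 chosen by the GFP input, where 25.1% of all tested genes were higher. The 370 carry the same limit of the low-count filter. The 68 were chosen on the input of this very comparison, so neither count supports anything about the class. Of the 487 TEC loci 1 was higher and 11 were lower in the difference between the pull-downs, against 13.2% and 11.1% of all tested genes.

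Long non-coding RNAs as a class moved far less than these lists. Of 777 tested, 90 (11.6%) were higher and 38 lower in the GFP-Mkrn3 IP, close to or below the 13.9% and 12.8% of all genes, with a median of 0.09. Without IP 2 only 13 were lower. Of the 495 with a RefSeq position, 218 overlap a protein-coding gene (18 higher, 13 lower) and 277 overlap none (21 higher, 14 lower). Their share of all counts was 1.28%, 0.935% and 1.41% in the IP libraries, against 1.06%, 1.06% and 1.01% in the input libraries. IP 2 lay below the inputs, and the exact two-sided permutation test gave p = 0.4 where 0.1 is the smallest that 3 against 3 libraries allow.

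Small nucleolar RNAs, guides of ribosomal RNA modification, had 18 tested members, of which 3 were higher and 0 lower, where 13.9% of all tested genes were higher. Without IP 3 the higher members numbered 5. Snora73b was at 11.01, 17.1 and 4.2 CPM in the IP, against 2.3, 2.6 and 2.6 CPM in the input (2.12, adjusted p = 0.000573). It is named here after its values were seen. The GFP IP held 8 of the 18 at a higher level, where 25.1% of all tested genes were higher.

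RNAs made inside mitochondria were depleted as a group. All 9 ribosomal RNAs and mRNAs tested in the list were lower in the GFP-Mkrn3 IP, against 12.8% of all tested genes, with log2 fold changes from −6.48 to −2.21 and a median of −2.56. The 3 mitochondrial tRNA genes tested outside the list, mt-Tw, mt-Tq and mt-Tp, were lower too, at −1.94, −2.41 and −2.70. The sum over the list was 1170 to 1380 CPM in the IP and 10234 to 14358 CPM in the input. The large ribosomal RNA mt-Rnr2 was at 44.2, 54.6 and 44.0 CPM in the IP, against 3172, 3323 and 6298 CPM in the input (−6.48, SE 0.34, adjusted p = 1.43e-10). The small ribosomal RNA mt-Rnr1 was at 6.5, 8.1 and 4.7 CPM in the IP, against 123, 182 and 333 CPM in the input (−5.00, adjusted p = 1.77e-07). Both ribosomal RNAs fell further than the 7 mRNAs, which lay between −3.20 for mt-Nd6, a complex I subunit encoded on the opposite strand to the others, and −2.21 for mt-Nd5. The oxidase subunit mRNA mt-Co1 was at 417, 476 and 443 CPM in the IP, against 2628, 2282 and 2567 CPM in the input (−2.48, adjusted p = 2.6e-10). GFP alone gave a median of −2.29. The difference between the pull-downs was called lower for mt-Rnr2 (−2.14, adjusted p = 0.000861), mt-Nd6 (−1.79, adjusted p = 0.00118) and mt-Co1 (−0.51, adjusted p = 0.0486). The mt-Co1 call was lost in 11 alternatives, with −0.31 (adjusted p = 0.177) without GFP IP 2 the smallest value.

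The 7SK RNA and the Y RNAs, small structured RNAs of the nucleus and the cytoplasm, were depleted to a like degree. Rn7sk encodes 7SK, the scaffold that holds the elongation factor P-TEFb inactive (chromosome 9, 78175302 to 78175633). It was at 702, 836 and 484 CPM in the GFP-Mkrn3 IP, against 12532, 11255 and 10485 CPM in the input (−4.08, SE 0.15, adjusted p = 1.86e-12). In the GFP IP it was at 1292 to 1389 CPM, so it was lower still with GFP-Mkrn3 (difference −1.08, adjusted p = 0.000576). The Y RNAs, partners of the Ro60 protein, were nearly lost from the IP. Rny1 was at 0.455, 0.448 and 0.337 CPM in the IP, against 14.7, 21.6 and 20.4 CPM in the input (−5.44, adjusted p = 1.49e-09). Rny3 was at 0.637, 1.28 and 1.01 CPM in the IP, against 26.7, 28.7 and 23.2 CPM in the input (−4.68, adjusted p = 1.18e-09). GFP alone depleted both Y RNAs too, with −7.19 for Rny1 and −3.91 for Rny3. The difference between the pull-downs was called for neither (adjusted p = 0.143 and 0.211). Of the 5 tested in the list of Y, 7SK, vault and ribozyme RNAs, 4 were lower. The fourth of these, the signal recognition particle RNA gene Rn7s2, was at 0.51 to 1.71 CPM in the input. Its call was missed without GFP-Mkrn3 input 2 (−2.53, adjusted p = 0.0641). Other small RNAs were mixed. Of 10 small nuclear RNAs 5 were lower, at −4.29 to −2.91, and 1 was higher. Of 7 small Cajal body RNAs 0 were lower and 1 was higher. Over all tested genes 12.8% were lower and 13.9% higher.

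**Figure D2:**
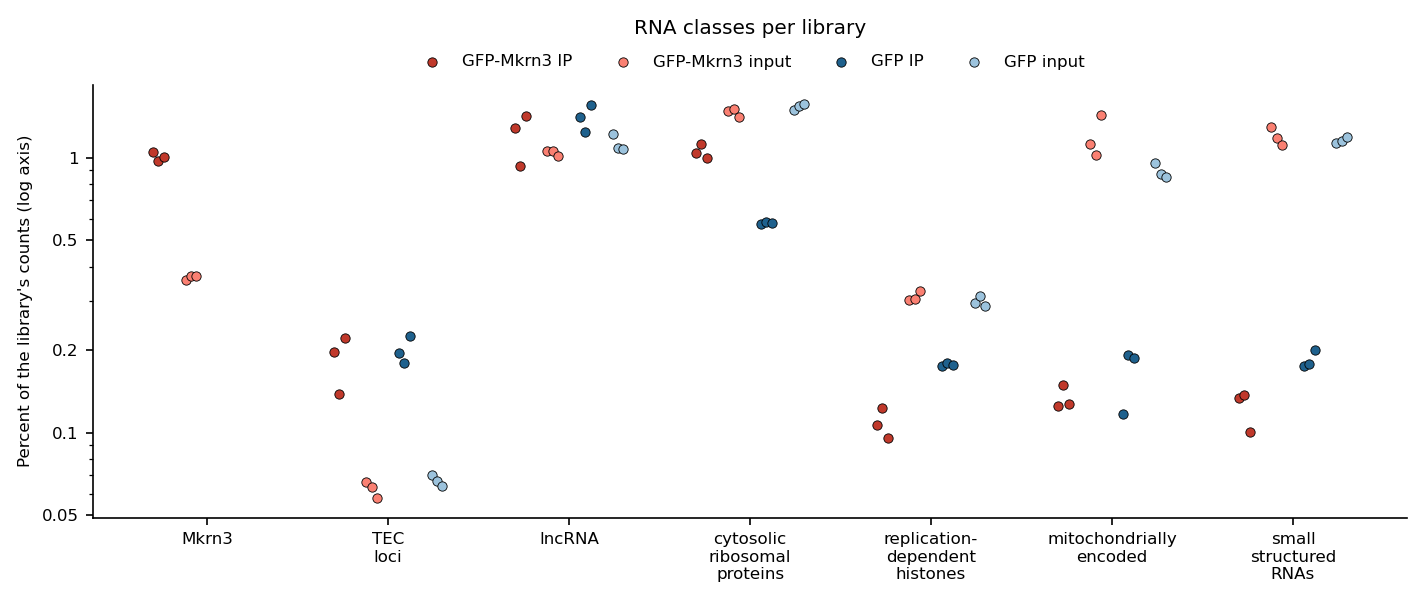
Percent of all counts taken by each class of RNA, on a log axis, for GFP-Mkrn3 IP, GFP-Mkrn3 input, GFP IP and GFP input from left to right; points are libraries (n = 3 per group). Mitochondrially encoded and small structured RNAs fill 1.19% and 1.20% of the GFP-Mkrn3 input but 0.134% and 0.124% of the GFP-Mkrn3 IP on average, the second class being mostly Rn7sk in the input, TEC loci take a larger share in the IPs, and Mkrn3 reaches 1.01% of the GFP-Mkrn3 IP.

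As shares of all counts, mitochondrially encoded RNAs took 0.134% ± 0.013 of the GFP-Mkrn3 IP, against 1.19% ± 0.21 of the GFP-Mkrn3 input (SD, n = 3), and small structured RNAs took 0.124% ± 0.020 of the IP, against 1.20% ± 0.09 of the input. Rn7sk made nearly all of the second difference, at 0.0714% ± 0.0200 of the IP and 1.14% ± 0.10 of the input. Without it the class took 0.0523% ± 0.0059 of the IP and 0.0571% ± 0.0127 of the input, and the groups overlapped. Cytosolic ribosomal protein mRNAs took 1.05% ± 0.06 of the IP and 1.46% ± 0.04 of the input. Replication-dependent histone mRNAs took 0.108% ± 0.014 of the IP and 0.312% ± 0.014 of the input. Groups did not overlap in any of these 4 classes, nor for TEC loci, Mkrn3 or the other protein-coding genes, and the exact two-sided permutation test gave the smallest p it can, 0.1 (0.129 adjusted over the classes). The remaining protein-coding genes made up 95.8% of the IP and 94.0% of the input.

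Replication-dependent histone mRNAs end in a stem-loop in place of a poly(A) tail and are made in S phase. Of 49 tested, 25 were lower in the GFP-Mkrn3 IP and 0 higher, against 12.8% and 13.9% of all tested genes, with a median of −1.07 (35 lower without IP 2 and 23 without IP 3). The families differed, a split made after the values were seen. All 11 tested genes of the core histone H4 were lower, at −3.15 to −1.19 with a median of −2.51, and all 5 linker histone H1 genes were lower, at −1.88 to −0.71. Of the 9 H2A genes 5 were lower (median −1.07), of the 10 H3 genes 2 (median −0.72), and of the 14 H2B genes 2 (median −0.32).

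The H4 genes encode nearly the same protein with different bases, which bears on how reads are shared among them. The first 24 coding bases of H4c3 and H4c6 in RefSeq (GRCm38.p6, both chromosome 13, minus strand) show it, capitals marking the 3 bases at which H4c6 differs.
H4c3: atgtctggacgtggtaagggtggt
H4c6: atgtctggTcgtggtaagggAggA
H4c6 (chromosome 13, 23551286 to 23551668) stood at 28.9, 24.2 and 34.6 CPM in the IP, against 279, 248 and 221 CPM in the input (−3.10, SE 0.13, adjusted p = 5.2e-12). H4c3 stood at 14.1, 14.7 and 8.4 CPM in the IP, against 65.3, 64.1 and 72.1 CPM in the input (−2.41, adjusted p = 9.8e-09). In both genes every IP library was far below every input library. No source used here states how reads matching several copies were counted, which leaves values of single H4 genes uncertain.

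Linker histones, which compact chromatin between nucleosomes, were lower with GFP-Mkrn3 by more than with GFP. H1f1 (chromosome 13, 23763668 to 23764412) was at 97.5, 109 and 124 CPM in the GFP-Mkrn3 IP, against 325, 312 and 396 CPM in its input (−1.65, adjusted p = 5.29e-09). In the GFP IP it was at 245, 237 and 236 CPM, against 295, 240 and 243 CPM in the GFP input (−0.11, adjusted p = 0.402). H1f1 thus overlapped its input with GFP, whereas with GFP-Mkrn3 every IP library was below every input library. The genes H1f2, H1f3, H1f4 and H1f5, described after their values were seen, gave −1.44, −1.88, −1.09 and −0.71 with GFP-Mkrn3, against −0.24, −0.37, −0.08 and 0.09 with GFP. The GFP decreases of H1f2 (adjusted p = 0.016) and H1f3 (adjusted p = 0.000874) were called, and those of the other 3 genes were not. The difference between the pull-downs was called lower for all 5 H1 genes, at −1.53 to −0.80, and for 9 of the 11 H4 genes. It was called for 0 of the H2A, H2B and H3 genes, where 11.1% of all tested genes were lower. GFP alone also lowered core histone mRNAs. In the GFP IP 10 of 11 H4 genes were lower (median −1.56) and 9 of 10 H3 genes (median −1.52). So were 4 of 9 H2A genes (median −0.59) and 5 of 14 H2B genes (median −0.79), against 25.2% of all tested genes.

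Messenger RNAs of ribosomal proteins, short and abundant messages, were lower more often than higher. Of 47 large-subunit genes 20 were lower and 1 higher, with a median of −0.27, and of 34 small-subunit genes 18 were lower and 1 higher, with a median of −0.42, against 12.8% lower and 13.9% higher over all tested genes. Rps14 was at 352, 249 and 423 CPM in the IP, against 864, 850 and 838 CPM in the input (−1.32, adjusted p = 1.63e-06). Rps16 was at 203, 177 and 260 CPM in the IP, against 570, 514 and 554 CPM in the input (−1.36, adjusted p = 7.62e-07). Rpl41, which encodes the smallest ribosomal protein, was at 407, 324 and 501 CPM in the IP, against 1150, 932 and 803 CPM in the input (−1.23, adjusted p = 1.13e-05). Each of the 3 IP libraries stood below all 3 inputs for these genes, and IP 2 was the lowest.

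Rpl36 and Rps29 were the 2 called higher. Without IP 3, 8 large-subunit and 2 small-subunit genes were higher. Rpl36 was at 76.1, 110 and 29.5 CPM in the IP, against 25.8, 27.9 and 35.9 CPM in the input (1.27, SE 0.32, adjusted p = 0.00692). Rps29 was at 31.4, 61.0 and 16.9 CPM in the IP, against 12.8, 13.6 and 24.4 CPM in the input (1.12, SE 0.35, adjusted p = 0.0228). IP 2 was highest for both, IP 3 lay within the inputs, and the Rps29 call was missed without IP 2 (0.51, adjusted p = 0.208), without input 1 (0.95, adjusted p = 0.103) and without input 2 (0.98, adjusted p = 0.101). The abundant gene Lonp1 lies within 5 kb of Rpl36.

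Nuclear-encoded subunits of the respiratory chain resembled the ribosomal proteins. Of 76 tested, 40 were lower and 2 higher (0 without input 2, 5 without IP 3), with a median of −0.41. Over all tested genes 12.8% were lower and 13.9% higher. The complex I subunit Ndufb9 was at 39.0, 30.1 and 51.6 CPM in the IP, against 116, 112 and 94.8 CPM in the input (−1.43, adjusted p = 7.75e-06). Ndufb6 was at 17.2, 16.8 and 19.4 CPM in the IP, against 40.5, 47.3 and 49.0 CPM in the input (−1.36, adjusted p = 1.59e-06). Both were well below every input library. Mitochondrial ribosomal proteins, with 11 of 76 lower and 3 higher and a median of −0.10, were near the 12.8% of all genes; the higher members numbered 13 without IP 3 and 1 without IP 2.

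**Figure D3:**
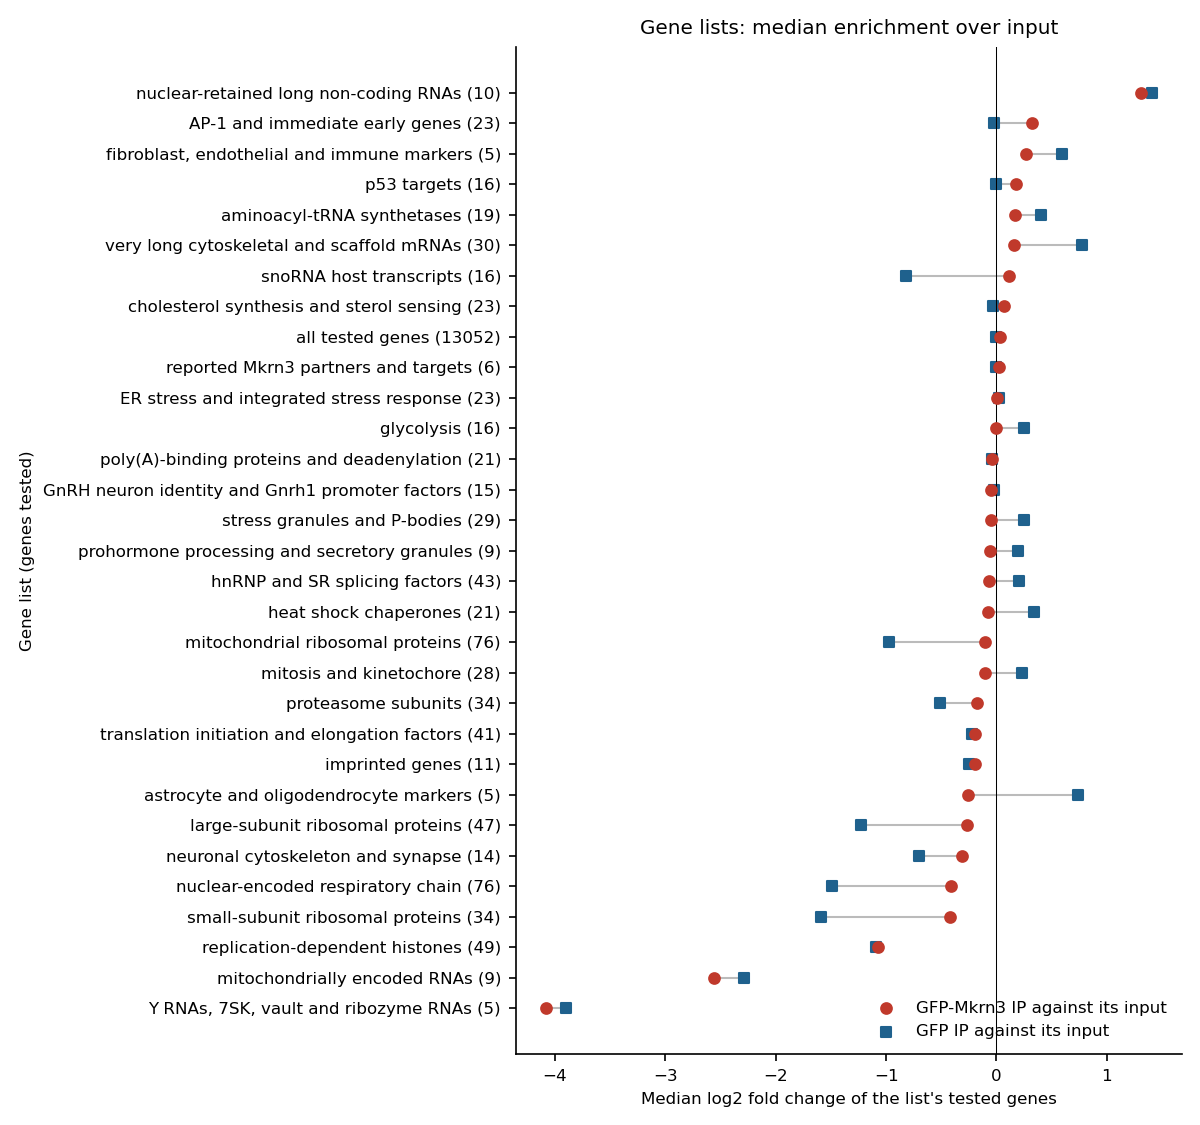
Median log2 fold change (IP over input) of the tested members of each gene list, with GFP-Mkrn3 as red circles and GFP as blue squares; the vertical line is 0. The Y, 7SK, vault and ribozyme RNAs, mitochondrially encoded RNAs and histones lie left of 0 in both pull-downs, nuclear non-coding RNAs lie right of it in both, and ribosomal protein and respiratory chain lists lie further left with GFP (−1.59 to −1.22) than with GFP-Mkrn3 (−0.42 to −0.27).

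Of 11316 protein-coding genes tested, 1359 (12%) were higher and 1576 lower, with a median of 0.01 (804 higher without input 2). Over all tested genes 13.9% were higher and 12.8% lower. The largest decrease was that of F12, coagulation factor XII (chromosome 13, 55417958 to 55426804), at 3.5, 2.3 and 2.8 CPM in the IP, against 46.4, 54.5 and 48.5 CPM in the input (−4.14, SE 0.18, adjusted p = 1.57e-11). In the GFP IP its log2 fold change was −4.38. The 10 protein-coding genes with the largest increase among those averaging at least 20 counts, picked after their values were seen, lay between 1.58 and 2.08 and had 0.508 to 2.99 CPM in the input; genes with fewer counts reached 6.65. Among the 10 Osgin1, an oxidative stress-induced growth inhibitor, was at 11.1, 15.8 and 6.5 CPM in the IP, against 2.8, 2.5 and 2.6 CPM in the input (2.08, SE 0.34, adjusted p = 0.000274). All 3 IP libraries were above the inputs for Osgin1, and Mlycd, a more abundant gene, lies within 5 kb of it. Polm and Sh3bp1 in this set lost their calls in several alternatives; without GFP-Mkrn3 IP 1 they were at 1.47 (adjusted p = 0.0507) and 1.57 (adjusted p = 0.128), and without GFP-Mkrn3 input 1 at 1.33 (adjusted p = 0.0597) and 1.47 (adjusted p = 0.146). Sh3bp1 was also missed without GFP-Mkrn3 input 2 (1.54, adjusted p = 0.14) and without IP 2 (1.69, adjusted p = 0.0594).

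Immediate early genes, whose short-lived mRNAs follow growth factor and stress signals, had 9 of 23 members higher and 0 lower, against 13.9% of all genes higher, with a median of 0.32. The AP-1 subunit Junb was at 74.2, 96.6 and 54.6 CPM in the IP, against 37.7, 36.3 and 40.7 CPM in the input (0.98, adjusted p = 0.00032). Klf2, a zinc-finger factor, was at 30.1, 36.1 and 20.4 CPM in the IP, against 13.6, 12.5 and 22.0 CPM in the input (0.85, adjusted p = 0.00998). Egr2, another zinc-finger factor, was at 10.6, 14.2 and 10.9 CPM in the IP, against 5.33, 5.54 and 7.48 CPM in the input (0.96, adjusted p = 0.00266). IP 2 was highest in all 3 and IP 3 overlapped the inputs for Klf2. The count depended on these libraries, at 5 without IP 2 and 13 without IP 3, and was 4 without input 2. Klf2 missed its call without input 1 (0.74, adjusted p = 0.0556) and input 2 (0.70, adjusted p = 0.0652), and the phosphatase gene Dusp5 (1.02, adjusted p = 0.03) missed it without IP 1 (1.03, adjusted p = 0.0724), IP 2 (0.81, adjusted p = 0.139), input 2 (1.00, adjusted p = 0.0893) or input 3 (0.81, adjusted p = 0.135). Prdx2, more abundant than Junb in the input, lies within 5 kb of it. Jun (0.23, adjusted p = 0.0887) and Egr1 (0.37, adjusted p = 0.137) did not pass.

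The other lists held smaller or mixed differences, to be read against 12.8% of all tested genes lower and 13.9% higher. Several of these counts moved by over 1.5 times with 1 library left out. Of 34 proteasome subunits 13 were lower and 2 higher (median −0.17), of 41 translation factors 12 were lower and 1 higher (median −0.20), and of 28 mitosis and kinetochore genes 10 were lower and 1 higher (median −0.10). Translation factors lower numbered 4 without input 2, 7 without IP 2 and 18 without IP 3, and those higher 5 without IP 3. Mitosis genes lower numbered 6 without input 2, and none was higher without input 1, input 2 or IP 2. No proteasome subunit was higher without input 1, input 2, IP 1 or IP 2. The kinetochore subunit Spc25 was at 24.4, 23.7 and 27.6 CPM in the IP, against 44.3, 48.1 and 45.6 CPM in the input (−0.87, adjusted p = 0.000288). Of 30 very long cytoskeletal and scaffold mRNAs 11 were higher and 3 lower (median 0.16). The 3 lower were the methyltransferase Kmt2d (−1.33), the cytolinker Plec (−0.92) and the microtubule protein Map1a (−0.65). Stress granule and P-body genes had 6 of 29 higher, among them the decapping factors Dcp1a (0.73), Dcp1b (1.26) and Edc4 (0.76), and 4 lower, among them Fmr1 (−0.52), whose call was missed without input 2 (−0.51, adjusted p = 0.0536). The lower ones numbered 2 without IP 1 or IP 2 and 11 without IP 3. Of 21 poly(A)-binding and deadenylation genes 3 were higher and 5 lower, the nuclear poly(A)-binding protein Pabpn1 being at −1.08 (adjusted p = 0.000602); the lower ones numbered 3 without IP 1, IP 2, input 1 or input 2. Of 43 hnRNP and SR splicing factors 5 were higher (2 without IP 1, 8 without IP 3) and 8 lower (4 without IP 2 or input 2, 15 without IP 3), and the aminoacyl-tRNA synthetases had 6 of 19 higher (2 without input 2) and 4 lower (1 without IP 2).

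Stress responses showed no common direction. The chaperone Hspa1b was at 17.1, 24.6 and 10.0 CPM in the IP, against 7.4, 5.8 and 7.6 CPM in the input (1.33, adjusted p = 0.00176), and the mitochondrial co-chaperonin Hspe1 was at 53.8, 37.1 and 71.2 CPM in the IP, against 109, 120 and 108 CPM in the input (−1.07, adjusted p = 0.00419). Of 21 heat shock chaperones 3 were higher and 5 lower (10 without IP 3, 3 without IP 1 or any 1 input). The glutathione-degrading enzyme Chac1, a target of ATF4, was at 26.7, 37.7 and 16.3 CPM in the IP, against 12.6, 11.9 and 13.6 CPM in the input (1.10, adjusted p = 0.0026). Of 23 endoplasmic reticulum stress genes 5 were higher and 6 lower, a share of 5 in 23 against 13.9% of all genes, and 3 were higher without input 2. Of 16 p53 targets 3 were higher and 0 lower (median 0.18), with 1 higher without IP 1, IP 2 or input 2 and 5 without IP 3.

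To set the GFP-Mkrn3 pull-down against the tag alone, the same test was run on the GFP libraries. There 6565 genes (50.3%) differed between IP and input, 3274 higher (25.1%) and 3291 lower (25.2%). The GFP-Mkrn3 and GFP comparisons share no library. Of the genes higher in the GFP-Mkrn3 IP, 1196 were higher in the GFP IP too, 66% of the GFP-Mkrn3 list and 36.5% of the GFP list. Of the genes lower, 1116 were lower in both, 66.6% of the GFP-Mkrn3 list and 33.9% of the GFP list. Only 72 genes were higher with GFP-Mkrn3 and lower with GFP, and 52 lower with GFP-Mkrn3 and higher with GFP. Across the 13052 genes, which are not independent replicates, Pearson's r of the log2 fold changes was 0.706 and Spearman's rho 0.494.

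**Figure D4:**
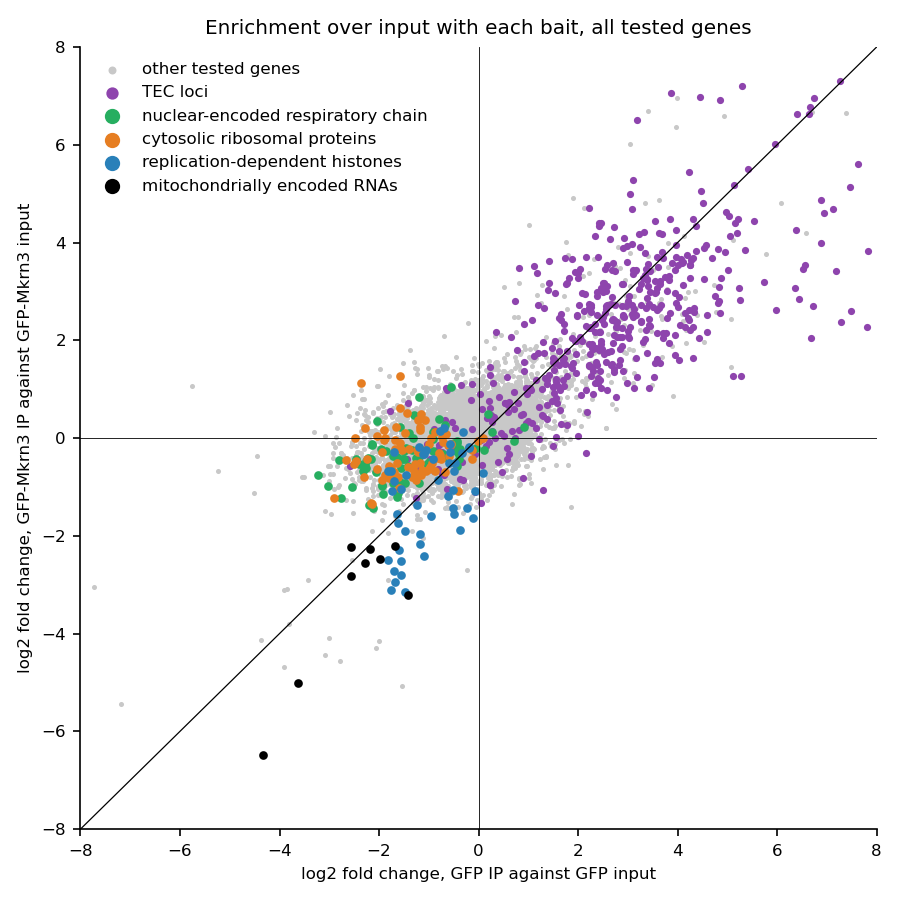
Log2 fold change of each tested gene in the GFP IP over its input (horizontal) and in the GFP-Mkrn3 IP over its input (vertical). TEC loci, ribosomal proteins, respiratory chain subunits, histones and mitochondrially encoded RNAs are in colour. TEC loci lie up to the right and mitochondrially encoded RNAs down to the left. Ribosomal protein and respiratory chain genes lie well below 0 on the horizontal axis and nearer 0 on the vertical one.

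The difference of the log2 fold changes (GFP-Mkrn3 minus GFP) was called for 3178 genes (24.3%), 1724 higher (13.2%) and 1454 lower (11.1%), and past 1 log2 unit for 814 higher and 70 lower. Ribosomal protein and respiratory chain mRNAs, depleted by both, were depleted less with GFP-Mkrn3. Of the large-subunit genes 37 of 47 were higher in the difference, of the small-subunit genes 26 of 34, of the respiratory chain 50 of 76 and of the mitochondrial ribosomal proteins 43 of 76. The very long mRNAs went the other way, with 25 of 30 lower in the difference; against their own inputs 11 of 30 were higher with GFP-Mkrn3 (median 0.16) and 26 of 30 with GFP (median 0.78). With library size alone the median difference over all genes moved to 0.23 log2 units, against 0.04 with TMM scaling, and the split to 2845 higher and 603 lower (82.5% higher, against 54.2%). The medians of the difference under TMM scaling were 0.94 for large-subunit, 1.00 for small-subunit and 0.96 for respiratory chain genes. Leaving out 1 library gave 2315 to 4359 called genes.

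These called differences ran along the spread between the GFP-Mkrn3 IP libraries. IP 2 was the highest and IP 3 the lowest of the 3 in 29.5% of all tested genes but in 64.7% of the genes higher in the difference (1115 of 1724). IP 2 was the lowest and IP 3 the highest in 32.4% of all genes and in 67.4% of those lower in the difference (980 of 1454). Among genes called against input the same orders held for 41.2% of the higher and 54.2% of the lower genes. How far this spread enters the difference was not tested, and IP 2 was also the deepest and IP 3 the shallowest of the 3 libraries.

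The 8 genes with the largest positive difference were all protein-coding. Bri3, a lysosomal membrane protein, was at 64.7, 88.6 and 32.2 CPM in the GFP-Mkrn3 IP, against 20.3, 21.0 and 36.2 CPM in its input, and differed from GFP by 3.05 (adjusted p = 0.00184). The cytochrome oxidase subunit Cox6a2 (3.43), the oxidase assembly factor Coa6 (3.13) and the reading frame Gm1673 (3.14) did not pass against the GFP-Mkrn3 input and were below input with GFP, at −3.30, −3.09 and −2.34. The endothelial gene Plvap (3.40) and 0610012G03Rik (3.10) complete the set with Rps29 (3.48) and Sh3bp1 (3.17). Plvap did not pass against the GFP-Mkrn3 input either. Plvap (2.02 CPM in that input) overlaps Gtpbp3 (31.9 CPM), and Coa6 (4.38 CPM) overlaps Tarbp1 (22.1 CPM). Against input the calls of Bri3 (0.91, adjusted p = 0.0871) and 0610012G03Rik (0.70, adjusted p = 0.0575) were missed without IP 2. The Bri3 call was also missed without IP 1 (1.24, adjusted p = 0.0701), input 1 (1.11, adjusted p = 0.112) or input 2 (1.13, adjusted p = 0.112), and that of 0610012G03Rik without input 2 (0.86, adjusted p = 0.0636). Of genes named above, Rab3a, a synaptic vesicle GTPase, also differed (1.13, adjusted p = 0.0179), but not without GFP IP 1 (0.95, adjusted p = 0.0573) or GFP-Mkrn3 input 1 (0.97, adjusted p = 0.0521). The Plvap difference was missed without GFP input 2 (2.17, adjusted p = 0.0999) and that of Sh3bp1 in 7 alternatives, the smallest being 2.02 (adjusted p = 0.137) without GFP input 2.

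On the negative side the largest difference was that of mt-Rnr2 (−2.14), and mt-Nd6 (−1.79), H4c1 (−1.68) and H1f1 (−1.53) were among the first 8. The smooth muscle myosin Myh11 was at 4.3, 4.2 and 5.4 CPM in the GFP-Mkrn3 IP, against 4.6, 5.1 and 6.2 CPM in its input, and was higher in the GFP IP than in the GFP input (1.54), a difference of −1.76 (adjusted p = 0.00151). Gm42986, Eid3 and Gm10461 make up the rest, at −1.96 to −1.71. The difference was missed for Gm42986 in 10 alternatives, for Eid3 in 11 and for Gm10461 without GFP IP 3 (−1.50, adjusted p = 0.0507).

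Properties of the genes were set beside the fold changes as a description. For 11208 protein-coding genes with a RefSeq position, the Spearman correlation of genomic span with the log2 fold change was 0.07 for GFP-Mkrn3 and 0.43 for GFP. The median log2 fold change with GFP-Mkrn3 was −0.03 in the shortest of 5 equal groups of genes and 0.05 in the longest, and with GFP it was −0.53 in the shortest and 0.25 in the longest. The shortest group (up to 8.89 kb) had 201 genes higher and 438 lower with GFP-Mkrn3, the longest (over 71.0 kb) 337 higher and 205 lower. Correlation with the level in the GFP-Mkrn3 input was −0.27, but that input is also the denominator of the fold change. GC content from 250 bases before to 50 after the start, known for 80.2% of protein-coding genes, was unrelated in rank (0.01).

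**Figure D5:**
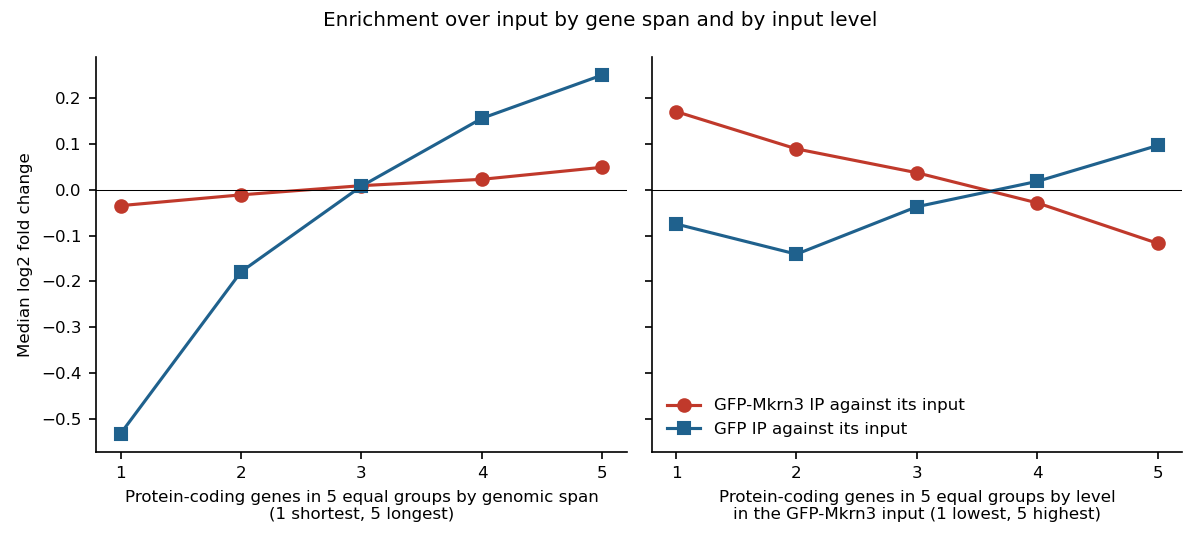
Median log2 fold change (IP over input) of protein-coding genes in 5 equal groups by genomic span (left) and by level in the GFP-Mkrn3 input (right), for GFP-Mkrn3 and GFP. By span the GFP-Mkrn3 medians stay between −0.03 and 0.05, while the GFP medians are −0.53 in the shortest group and 0.25 in the longest. By input level the GFP-Mkrn3 medians are 0.17 in the lowest group and −0.12 in the highest.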

How the data were processed

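RNA was measured in 12 RIP libraries of GT1-7 cells, 3 in each of 4 groups set by plasmid and fraction. Per the labels, libraries were made by CEL-seq2, which reads 3′ ends, and sequenced on an Illumina HiSeq instrument. The kit of the RIP libraries could not be checked beyond the labels. How well it captures RNAs without a poly(A) tail, such as the histone mRNAs, was not tested. Per the submitters' processing notes, cutadapt, STAR, HTSeq and the mouse build mm10 were used; their versions, the annotation, strandedness and any molecular identifiers were not given in the sources used here. Whole-number raw counts per gene are the deposited values, in 57010 rows of which 1606 have no gene name. Gene types came from a second deposited table and positions and sequences from RefSeq (GRCm38.p6).

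All 12 libraries entered 1 fit in edgeR 4.0.16 (R 4.3.3) with TMM scaling, filterByExpr by group and no covariate. The quasi-likelihood F test was two-sided, with Benjamini-Hochberg adjustment over 13052 tested genes and a call at 0.05. The contrasts compared IP with input, separately by plasmid, and then the GFP-Mkrn3 result with the GFP result. CPM values are on the TMM scale. Shares of counts were compared by an exact permutation test (scipy 1.17.1, Python 3.11.15, numpy 2.4.6, pandas 2.3.3) and figures drawn with matplotlib 3.10.9. The fit was also run on simulated counts drawn independently for each gene, without the spread that genes share between the GFP-Mkrn3 IP libraries. That run therefore tells nothing about this spread. Intervals of ratios are exact, at 95%, and cover counting error only.

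Named genes were a preset list, the 12 called genes with the largest log2 fold change in each direction, the 8 in each direction for the difference, all of these averaging 20 counts or more, plus the called members of a list with the largest absolute value (4 at most); not all of them are described. The 31 gene lists cover 865 entries, of which 852 matched a row, 60 by an older symbol. The members and lists were chosen with earlier results of these data known, and other list members and the 10 protein-coding genes with the largest increase were picked after their values were seen. Alternatives changed the scaling (library size alone, or size factors of DESeq2 1.42.0), the filter (none, or a mean of 20 counts), the test (DESeq2) or the model (compared groups only, a replicate block by number or by lysate), or omitted single libraries.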

Additional observations from a re-analysis of the deposited data

Results flagged for a closer look

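The IP-over-input log2 fold change of GFP-Mkrn3 differed from that of GFP, by a test of the difference itself (edgeR quasi-likelihood, Benjamini-Hochberg), for 3178 genes. Values below are that difference, GFP-Mkrn3 minus GFP. Among the genes named, the positive ones were Rps29 (3.48), Cox6a2 (3.43), Plvap (3.40), Sh3bp1 (3.17), Gm1673 (3.14), Coa6 (3.13), 0610012G03Rik (3.10), Bri3 (3.05), Snora73b (1.66), Pcsk1n (1.40), Gnrh1 (1.29), Mkrn3 (1.20), Rab3a (1.13), Six6 (0.66) and Pabpc1 (0.41). Rps29, Cox6a2, Gm1673, Coa6, Bri3 and 0610012G03Rik were below input in the GFP IP and at or above it with GFP-Mkrn3. Gnrh1 was below input in both.

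The negative ones included the mitochondrially encoded mt-Rnr2 (−2.14), mt-Nd6 (−1.79) and mt-Co1 (−0.51), the 7SK gene Rn7sk (−1.08), the core histones H4c1 (−1.68), H4c6 (−1.34) and H4c12 (−1.27), and the linker histones H1f1 (−1.53), H1f2 (−1.20), H1f3 (−1.51), H1f4 (−1.01) and H1f5 (−0.80). The other negative ones were Gm42986 (−1.96), Eid3 (−1.79), Myh11 (−1.76), Gm10461 (−1.71), Cpd (−0.59), Mkrn1 (−0.51) and Pam (−0.34). The calls of Mkrn1 and Pam were each lost in 12 alternatives. Mkrn1 gave −0.39 (adjusted p = 0.0975) without GFP-Mkrn3 IP 2, and Pam gave −0.27 (adjusted p = 0.0755) there. Those of Snora73b and Six6 were lost in 10 and 6 alternatives, Six6 giving 0.50 (adjusted p = 0.0667) without GFP-Mkrn3 IP 2. The part of the spread between the GFP-Mkrn3 IP libraries in these differences was not tested.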

How the results depend on the processing

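Of 173 named genes, 148 were called between the GFP-Mkrn3 IP and its input, 33 of these lost the call under at least 1 alternative, 7 others gained one, and 0 changed sign while called. Of 72 genes followed in the difference between the pull-downs 34 were called, 11 lost the call at least once, 8 gained one and 0 changed sign while called. Leaving out 1 library gave 1195 to 2371 genes higher in the GFP-Mkrn3 IP, the low end without GFP-Mkrn3 input 2 and the high end without GFP-Mkrn3 IP 3. The median of the prohormone list was −0.0584 as reported and 0.0275 with library size alone. That of the astrocyte and oligodendrocyte list was −0.254 as reported, 0.02225 under the filter at 20 counts and 0.0355 with the compared groups alone; the cause was not tested. Equal replicate numbers of IP and input did not go with correlated deviations (−0.146 to 0.014 over 6 pairs). These correlations cannot show whether an IP and an input of the same number came from the same lysate, which the labels do not state. With a replicate block by number 3511 genes were called and by lysate 3001, against 3487 without. Depth limits the lowest rows: TEC loci and Y RNAs rest on a few counts per library in 1 of the groups.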
